A study of Mus musculus with 2 samples.

Results

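The 10 genes described here encode the enzymes of lower glycolysis: Aldoa and Aldoc (aldolase), Tpi1 (triosephosphate isomerase), Gapdh (glyceraldehyde-3-phosphate dehydrogenase), Pgk1 (phosphoglycerate kinase), Pgam1 (phosphoglycerate mutase), Eno1, Eno2 and Eno3 (enolase) and Pkm (pyruvate kinase). They were taken by symbol and are 10 of the 32285 genes in the count tables. The 7 genes that serve each step in most cells (Aldoa, Tpi1, Gapdh, Pgk1, Pgam1, Eno1 and Pkm) are called core steps, and Aldoc, Eno2 and Eno3 are the 3 tissue isoforms. They were followed in sorted cells of the mouse embryo across classes of cells and between a control and a mutant library, in cells in which over 2000 but below 9000 genes were found and mitochondrial genes took under 10% of the counts. A second row with the symbol Aldoa, the neighbouring gene model at chr7:126800790-126809108, minus strand of GRCm38, held 445 counts against 151437 and was left out.

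As background, these enzymes cleave fructose-1,6-bisphosphate into triose phosphates and carry the carbon on to pyruvate, with a gain of ATP and NADH. Vertebrates hold several genes for some of the steps: aldolase A serves muscle and most tissues and aldolase C the brain, while enolase occurs as a general form from Eno1, a neuronal form from Eno2 and a muscle form from Eno3. The replacement of the general by the muscle enolase is a known mark of maturing heart and skeletal muscle. Many of these genes are also known targets of hypoxia-inducible factor (HIF), the transcription factor of the response to low oxygen.

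The cells came from embryos at E13.5 and were sorted for eYFP, which Cre switches on permanently in the lineage of cells that have expressed Isl1. The control embryos were Isl1-Cre;R26R-eYFP, and the mutant embryos were Isl1-Cre;R26R-eYFP;Pik3caH1047R, with the activated form of the PI3K subunit expressed from the Rosa26 locus in the same lineage, so both groups carried Cre and the reporter. Tissue above the liver of 3 embryos was pooled for each genotype and sequenced as 1 library with the 5′ single-cell assay of 10x Genomics, which tags every captured transcript with a unique molecular identifier (UMI). Isl1-Cre is active in cardiopharyngeal mesoderm but also in nerve and epithelial lineages, so the sorted cells span many lineages. The labels name the pharyngeal arch as the tissue, but heart cells in both libraries and 47 cells with liver genes in the mutant library were also found. With 1 library a genotype there is no replicate: no test between genotypes was possible, pooled embryos cannot be told apart, and every interval below is a 95% interval for counting error only.

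The kept cells were 2783 of 4505 in the control library and 3489 of 5357 in the mutant library, with 63153191 and 69717583 UMIs and medians of 20412 and 16839 per cell. The 2 libraries shared 28 barcodes, 12 of them among kept cells. No row of the tables stood for the transgene, and Pik3ca itself held 34.8 counts per 1000000 UMIs (CPM) in control and 36.7 in mutant cells. Expression of Xist and of genes on the Y chromosome made 95.5% of the control but 33.6% of the mutant cells female-like, and 53.3% of the mutant cells male-like, so the ratios were also computed in female-like cells of both libraries. Of 15 clusters, 14 were named from marker genes and carry "-like" in their names since no deposited annotation was used: branchial muscle-like (clusters 1, 6 and 8), cardiomyocyte-like, neuron-like (clusters 5 and 10), mesenchyme-like, epithelium-like, mesothelium-like, macrophage-like and endothelium-like cells had at least 50 cells in both libraries, as did the Adh1, Wnt2 and Tbx4 cluster (cluster 4), which had no name by its markers. Cluster 4 raised 4 of 12 mesenchyme markers but stayed unnamed, because its top 10 genes by fold held 1 mural marker, Rgs5, and no mesenchyme marker. The macrophage-like cluster also expressed 9 erythroid markers, summed at 3632 CPM in control and 14048 in mutant, while its 11 macrophage markers summed to 5654 and 2357. At a finer clustering, 81 control and 135 mutant cells of this class were erythroid-like and 92 and 41 macrophage-like, so its ratios compare unlike mixtures of cells.

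Levels were compared first. UMIs of a gene were summed over the cells of a class in a library and divided by all UMIs of that class, as CPM, and since 1 UMI stands for 1 captured transcript end, no length correction was made. In the control library, the summed core steps ranged from 2588 CPM in mesenchyme-like cells and 2726 in neuron-like cells to 13523 in cardiomyocyte-like cells, which stood far above the next class, mesothelium-like cells at 5838. Branchial muscle-like cells, the other striated muscle of these embryos, held 5587 and epithelium-like cells 5094. In the control library each neighbour in this order differed by more than counting error. In the mutant library, cardiomyocyte-like cells were again highest at 20849.7 and neuron-like cells lowest at 5350.0, and the only neighbours whose intervals overlapped were the Adh1, Wnt2 and Tbx4 cluster (6692) and macrophage-like cells (6823).

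**Figure D1:**
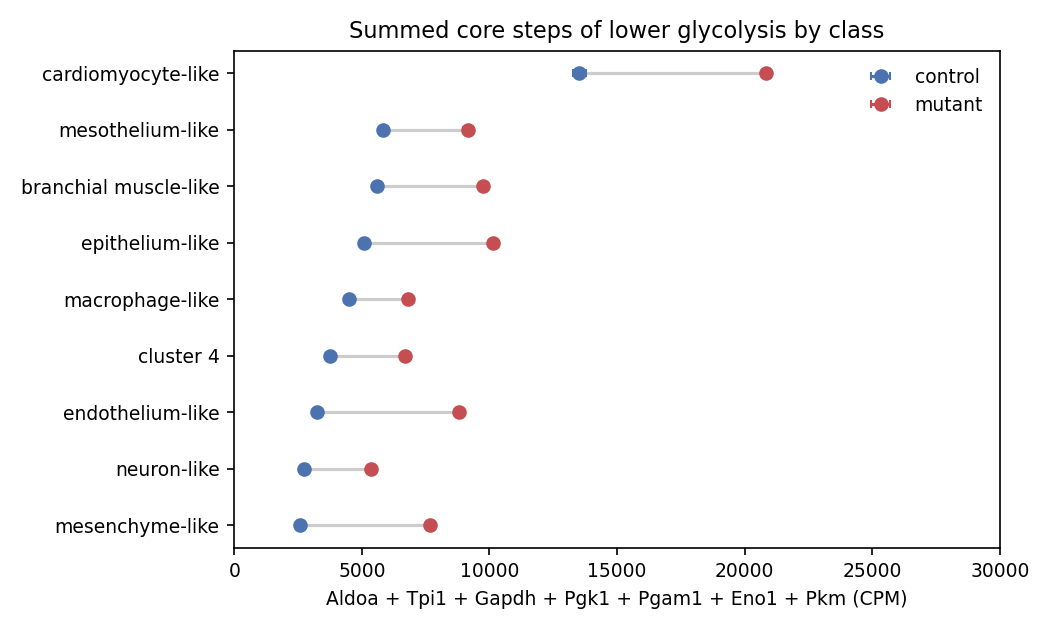
Summed CPM of the 7 core steps in the control (blue) and mutant (red) library for the 9 classes compared, in order of the control level, with 95% Poisson intervals that are mostly narrower than the points. The mutant point lies to the right of the control point in all 9 classes, and cardiomyocyte-like cells, at 13523 and 20849.7, stand apart from the rest in both libraries.

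The summed core steps were higher in the mutant library in 9 of 9 classes. Among the 8 classes other than endothelium, the log2 ratio of mutant over control was largest in mesenchyme-like cells at 1.57 (interval 1.55 to 1.59), which placed this class, the lowest in control, above neuron-like cells, the Adh1, Wnt2 and Tbx4 cluster and macrophage-like cells in mutant. The 12 mesenchyme markers of this class also differed, at 11965 summed CPM in control and 3729 in mutant with 12 of 12 detected in both, and their part in the ratio was not tested. Epithelium-like cells followed at 0.99 and neuron-like cells at 0.97. The ratio was 0.84 in the Adh1, Wnt2 and Tbx4 cluster, 0.80 in branchial muscle-like, 0.65 in mesothelium-like, 0.62 in cardiomyocyte-like and 0.60 in macrophage-like cells. Endothelium-like cells, given for comparison, were at 1.44. Markers of other cell types differed beside some of these ratios. The 8 mural markers, all detected, summed to 57.7 CPM in control and 542 in mutant epithelium-like cells, 564 and 2732 in the Adh1, Wnt2 and Tbx4 cluster and 123 and 568 in mesothelium-like cells, and with 7 of 8 detected to 1564 and 3824 in cardiomyocyte-like cells. The 15 endothelium markers, all detected, summed to 129 and 319 in the Adh1, Wnt2 and Tbx4 cluster, and the 12 cardiomyocyte markers, 10 of them detected in each library, to 442 and 1246 in mesothelium-like cells. The part of these markers in the ratios was not tested. The difference was not even within a lineage: muscle cluster 8, led by the embryonic myosin Myh3 and the fusion factor Mymk, had 1.04 (interval 1.02 to 1.07) against 0.78 in cluster 1, led by the progenitor genes Pax7 and Myf5. Neuron cluster 10, led by Neurod1 and Ppp1r17, had 1.28 (interval 1.23 to 1.32) against 0.75 in cluster 5 with Gad2 and Lhx5.

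In female-like cells alone the summed core steps were still higher in mutant cells in 9 of 9 classes, with smaller ratios in all but cardiomyocyte-like cells. Of the 54 control and 184 mutant cardiomyocyte-like cells, only 11 and 12 were female-like. Since the whole control library held 1 male-like cell, nearly all other control cardiomyocyte-like cells were unassigned and not male-like. The ratio was 1.33 in mesenchyme-like, 0.90 in neuron-like, 0.85 in epithelium-like and 0.75 in branchial muscle-like cells. It was 0.34 (interval 0.28 to 0.40) in mesothelium-like cells, where only 23 mutant cells were female-like, and 0.65 in the Adh1, Wnt2 and Tbx4 cluster, with 26 such cells. Within the mutant library, male-like cells exceeded female-like cells by a log2 ratio of 0.05 to 0.50 over the 9 classes. Sex and embryo cannot be told apart here, because cells of a pool were not assigned to embryos.

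**Figure D2:**
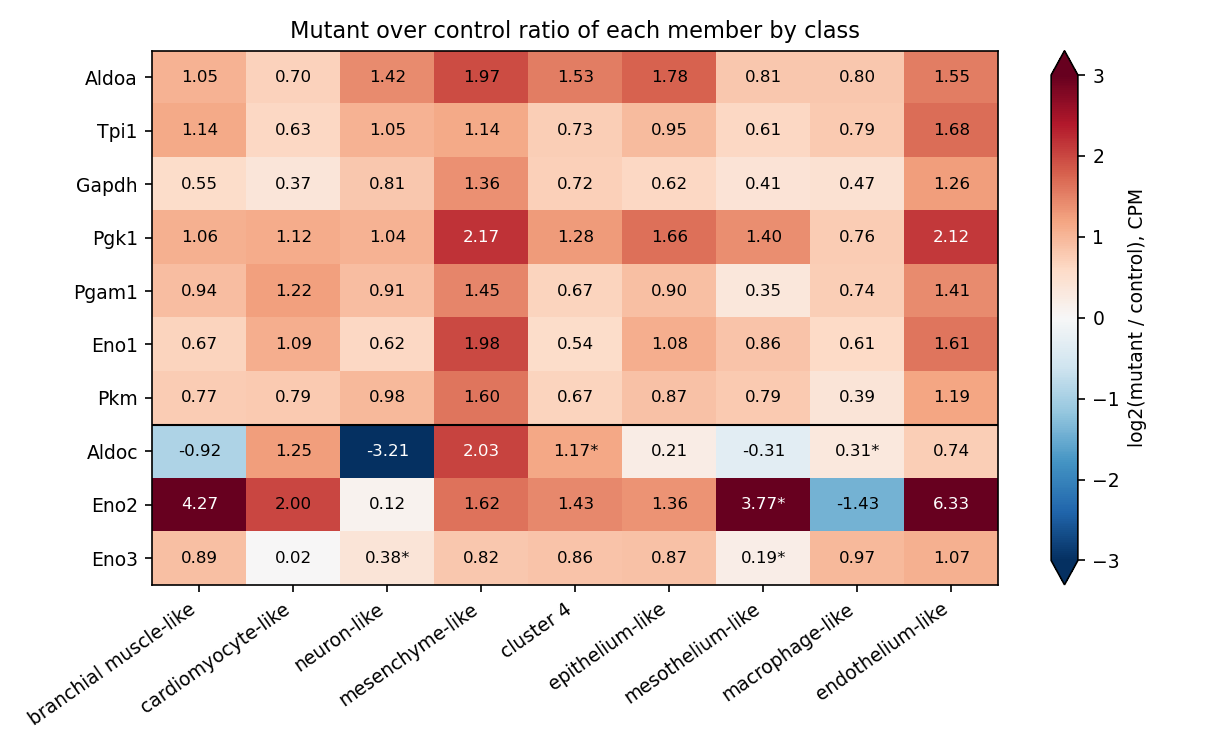
Log2 ratio of mutant over control CPM for each gene (rows, core steps above the line, tissue isoforms below) in each of the 9 classes (columns), with red higher and blue lower in the mutant library and colours that end at 3 in both directions. An asterisk marks genes with under 50 UMIs over both libraries. All core steps are red in all 9 classes, from 0.35 for Pgam1 in mesothelium-like cells to 2.17 for Pgk1 in mesenchyme-like cells. Aldoc and Eno2 vary in sign and size, and Eno3 varies in size but is above 0 in all 9 classes.

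Gene by gene, all 63 pairs of a core step and a class had an interval above 0, and 56 of them were at least 1.5-fold higher in the mutant library. In female-like cells 62 pairs had an interval above 0 and 44 were at least 1.5-fold higher. Counted over all members with at least 50 UMIs in a class, 10 of 10 were at least 1.5-fold higher in mesenchyme-like cells, where 9.08% of all genes with at least 50 UMIs were so. The count was 9 of 10 in epithelium-like cells against 8.34% of all genes, 8 of 10 in branchial muscle-like cells against 13.2%, and 8 of 10 in cardiomyocyte-like cells against 11.8%. It was 7 of 9 in neuron-like cells (background 5.62%), 8 of 9 in the Adh1, Wnt2 and Tbx4 cluster (10.7%), 6 of 9 in macrophage-like cells (8.6%), 5 of 8 in mesothelium-like cells (21.1%) and 10 of 10 in endothelium-like cells (11.6%). The epithelium-like and endothelium-like counts include Eno3, for which 2 mutant cells held 43 of 128 and 19 of 54 mutant UMIs. In endothelium-like cells Aldoc, Eno2 and Eno3 had only 8, 1 and 6 control UMIs, and in cardiomyocyte-like cells Aldoc and Eno2 only 12 and 5. Control UMIs were also few for Eno2 in branchial muscle-like (12) and epithelium-like cells (25), Aldoc in mesenchyme-like cells (25) and Eno3 in macrophage-like cells (26). All of these reached 50 UMIs only through the mutant library, so their place in the counts is no support. The epithelium-like count includes Eno2, at -0.47 in female-like cells. Also counted was Eno3 in the Adh1, Wnt2 and Tbx4 cluster (-0.16 in thinned cells, of which only 16 control and 4 mutant cells held it) and in macrophage-like cells (-0.18 without erythroid-like cells). In female-like cells the count was 3 of 8 in the Adh1, Wnt2 and Tbx4 cluster, where 14.8% of all genes were so, and 1 of 8 in mesothelium-like cells, where 20.7% were. There it was 6 of 9 in branchial muscle-like (background 9.65%), 6 of 8 in cardiomyocyte-like (19.7%) and 6 of 9 in neuron-like cells (5.36%). It was 9 of 9 in mesenchyme-like (7.93%), 7 of 9 in epithelium-like (6.06%), 4 of 7 in macrophage-like (8.03%) and 8 of 8 in endothelium-like cells (7.28%). In the other direction, at least 1.5-fold lower were Aldoc in branchial muscle-like cells (background 7.97%), Aldoc in neuron-like cells (15.4%) and Eno2 in macrophage-like cells (16.7%). No member was so in the other 6 classes, where 9.29% of all genes were in epithelium-like cells, 9.65% in the Adh1, Wnt2 and Tbx4 cluster, 12.2% in mesenchyme-like, 16% in cardiomyocyte-like, 12.9% in mesothelium-like and 12.8% in endothelium-like cells.

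Aldoa (chr7:126795234-126800751, minus strand), the aldolase of muscle and most tissues, ranged in the control library from 315 CPM in neuron-like to 2623 in cardiomyocyte-like cells. It was at least 1.5-fold higher in the mutant library in 9 of 9 classes, and in 8 of 9 among female-like cells with a lowest log2 ratio of 0.31, and had the largest ratio of the 7 core steps in 4 classes. In mesenchyme-like cells it went from 336 in control to 1313 in mutant, a log2 ratio of 1.97 (interval 1.91 to 2.02), and in epithelium-like cells from 496 to 1702, a log2 ratio of 1.78. Tpi1 (chr6:124810586-124814296, minus strand), which interconverts the triose phosphates, was also at least 1.5-fold higher in 9 of 9 classes, from 0.61 in mesothelium-like to 1.68 in endothelium-like cells, but in 7 of 9 among female-like cells, where its lowest was 0.41. Its level in muscle cluster 8 was 241 in control and 716 in mutant CPM, the largest ratio of the core steps there at 1.57 (interval 1.46 to 1.68).

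Gapdh (chr6:125161715-125166467, minus strand), which makes the NADH of the pathway, had the smallest ratios of the core steps in branchial muscle-like, cardiomyocyte-like and epithelium-like cells. It was 2045 CPM in control and 2990.2 in mutant branchial muscle-like cells, a log2 ratio of 0.55 (interval 0.53 to 0.57), and 6474 against 8369.7 in cardiomyocyte-like cells, a log2 ratio of 0.37. It passed 1.5-fold in 5 of 9 classes, and in 3 of 9 among female-like cells, so a value scaled to Gapdh would differ from one scaled to all UMIs. Pgk1 (chrX:106187100-106203699, plus strand), which makes the first ATP of lower glycolysis and lies on the X chromosome, was at least 1.5-fold higher in 9 of 9 classes, also among female-like cells. Its level was 163 in control and 733 in mutant mesenchyme-like cells, a log2 ratio of 2.17 (interval 2.09 to 2.25), and 1.84 in female-like cells. In macrophage-like cells, at the other end, it was 340.5 and 576, a log2 ratio of 0.76.

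Pgam1 (chr19:41911923-41918660, plus strand), the general phosphoglycerate mutase, had its smallest ratio in mesothelium-like cells, with 622 against 790.5 CPM and a log2 ratio of 0.35 (interval 0.22 to 0.47). In female-like mesothelium-like cells its ratio was 0.04, the one pair of core step and class whose interval held 0. In cardiomyocyte-like cells, by contrast, it had the largest ratio of the core steps at 1.22 (interval 1.10 to 1.34). Those cells differed in chamber genes between the libraries, and Pgam1 and Eno1 levels split by these genes are given below. Eno1 (chr4:150236721-150248879, plus strand), the general enolase, had levels from 111 to 350.2 CPM over the control classes and from 239 to 636 over the mutant classes. Its ratio was 1.98 in mesenchyme-like and 1.09 in cardiomyocyte-like cells and 0.54 in the Adh1, Wnt2 and Tbx4 cluster. It was at least 1.5-fold higher in 8 of 9 classes and in 5 of 9 among female-like cells, and Pgam1 in 8 and 6. Pkm (chr9:59656368-59679375, plus strand), the pyruvate kinase of most tissues other than liver and red cells, had ratios from 0.39 in macrophage-like to 1.60 in mesenchyme-like cells. It was at least 1.5-fold higher in 8 of 9 classes and in 6 of 9 among female-like cells. Gene-level UMIs do not separate its splice forms M1 and M2.

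Some of these counts could hold or lose reads through near-identical copies in the genome. Of the 50-base windows of the longest coding transcript, 82.5% recur in transcripts of 218 other genes for Gapdh, 72.2% for Eno1, 68% for Pgk1, 41.5% for Pgam1, 30.5% for Pkm, 13.53% for Aldoa and 7.51% for Tpi1, in GENCODE transcripts of GRCm38. The tissue isoforms hold almost none: 0% for Aldoc and Eno3 and 0.0364% for Eno2. The Gapdh copies Gm13394 and Gm2451 are not rows of the tables but lie on the same strand inside Cfap77, a gene of cilia, and Stpg2, a gene of sperm tails. Cfap77 held 18.5 to 21.5% of the Gapdh UMIs in each of the 18 sums of a class in a library, and Stpg2 31.4 to 39.2%. Across these sums, which share the 2 libraries, Pearson's r of log2 levels with Gapdh was 0.998 for Cfap77 and 0.997 for Stpg2. Reads of Gapdh and of these copies cannot be told apart in the counts, so the Gapdh level is uncertain. With Cfap77 and Stpg2 added, its ratio was 0.55 in the branchial muscle-like class and 1.36 in mesenchyme-like cells, as without them. It moved most in macrophage-like cells, from 0.47 (interval 0.43 to 0.51) to 0.52. Eno1b, a close copy of Eno1, held 8.7 to 14.3% of the Eno1 UMIs in the same sums.

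**Figure D3:**
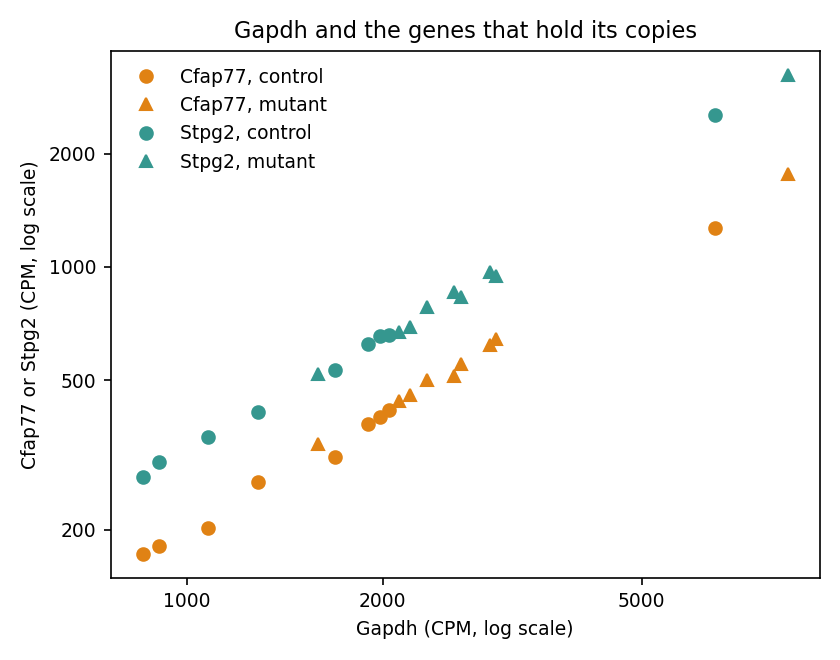
Level of Cfap77 (orange) and Stpg2 (teal) against that of Gapdh, in CPM on log axes, for 9 classes in the control (circles) and mutant (triangles) library. Both genes lie along straight lines with Gapdh over the 18 sums, with r = 0.998 and 0.997.

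Promoter sequences were set beside these ratios because the core steps were higher together and HIF is known to bind sites with the core ACGTG or GCGTG. In the RefSeq windows of build GRCm38.p6 (250 bases before to 50 after a start), all 10 members had a window, 16 in all, and ACGTG on either strand occurred in 7 of the 16, which is 43.8%, against 19.6% of all 32851 windows. These windows are not independent: 2 of the 3 Aldoa windows overlap and share their 1 match, and the third Aldoa window has none. The motif was found for 5 of the 7 core steps and for Aldoc among the 3 tissue isoforms. The Aldoc ratio differed in sign among classes. The motif was not found for Tpi1 and Eno1, which were at least 1.5-fold higher in 9 and 8 of 9 classes. GCGTG on either strand occurred in 8 of the 16 windows, which is 50%, against 32.4% of all windows, and was found for 3 core steps (Gapdh, Pgam1 and Eno1) and for the tissue isoforms Aldoc and Eno3. These 8 windows are not independent either: they include 3 of Eno1, 2 of which overlap and share their matches, and 2 of Aldoc. A match is a description of the letters and not a site of binding. Shown are the windows of Pgk1 and Aldoa, which had the largest ratio of the core steps in 7 of 9 classes between them. Also shown are those of Eno3 and Eno2, whose ratios differed among classes and whose windows hold no ACGTG. Eno2 had a log2 ratio of 4.27 in branchial muscle-like cells, from 12 control UMIs, and -1.43 in macrophage-like cells. A link of motif and ratio was not tested. Of these 4 windows only that of Eno3 holds GCGTG, which is not marked. The capitals mark ACGTG or its reverse complement CACGT.
Pgk1, chrX:106186850-106187149, plus strand: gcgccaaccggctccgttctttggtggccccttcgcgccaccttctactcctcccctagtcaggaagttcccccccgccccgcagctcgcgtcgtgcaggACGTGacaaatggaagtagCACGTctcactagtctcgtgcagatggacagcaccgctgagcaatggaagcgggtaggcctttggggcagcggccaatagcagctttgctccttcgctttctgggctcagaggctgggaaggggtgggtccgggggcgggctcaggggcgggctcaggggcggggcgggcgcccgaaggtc
Aldoa, chr7:126799205-126799504, minus strand: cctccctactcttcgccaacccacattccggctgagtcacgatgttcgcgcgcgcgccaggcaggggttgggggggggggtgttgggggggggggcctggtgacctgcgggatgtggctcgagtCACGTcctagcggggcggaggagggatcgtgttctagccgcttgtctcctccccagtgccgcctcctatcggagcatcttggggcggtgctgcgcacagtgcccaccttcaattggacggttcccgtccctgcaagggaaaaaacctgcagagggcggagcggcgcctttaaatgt
Eno3, chr11:70656926-70657225, plus strand: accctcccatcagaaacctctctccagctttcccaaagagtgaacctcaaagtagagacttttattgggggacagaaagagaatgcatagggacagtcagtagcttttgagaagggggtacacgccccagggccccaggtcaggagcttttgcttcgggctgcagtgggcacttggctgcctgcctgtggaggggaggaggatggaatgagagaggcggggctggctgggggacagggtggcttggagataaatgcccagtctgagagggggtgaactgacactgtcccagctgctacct
Eno2, chr6:124769624-124769923, minus strand: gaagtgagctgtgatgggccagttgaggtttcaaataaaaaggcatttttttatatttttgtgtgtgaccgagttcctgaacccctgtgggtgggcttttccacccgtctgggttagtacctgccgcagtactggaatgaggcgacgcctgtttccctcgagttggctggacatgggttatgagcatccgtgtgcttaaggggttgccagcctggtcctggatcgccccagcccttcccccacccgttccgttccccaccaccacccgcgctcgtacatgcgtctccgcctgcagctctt

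Isoform choice was read as the share of Eno1, Eno2 and Eno3 UMIs that each enolase took, which does not depend on the class total. In the control library, Eno1 took most of the enolase UMIs in 8 of 9 classes, and the exception was cardiomyocyte-like cells. Outside muscle and heart, the Eno3 share was 1.24 to 5.72% in control and 0.815 to 4.0% in mutant classes. Its lowest values, in endothelium-like cells, stand for a class that should lack muscle enolase and show how much Eno3 the assay gives there. With Eno1b counted with Eno1, the share was 71.9% for Eno3 in control cardiomyocyte-like cells.

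**Figure D4:**
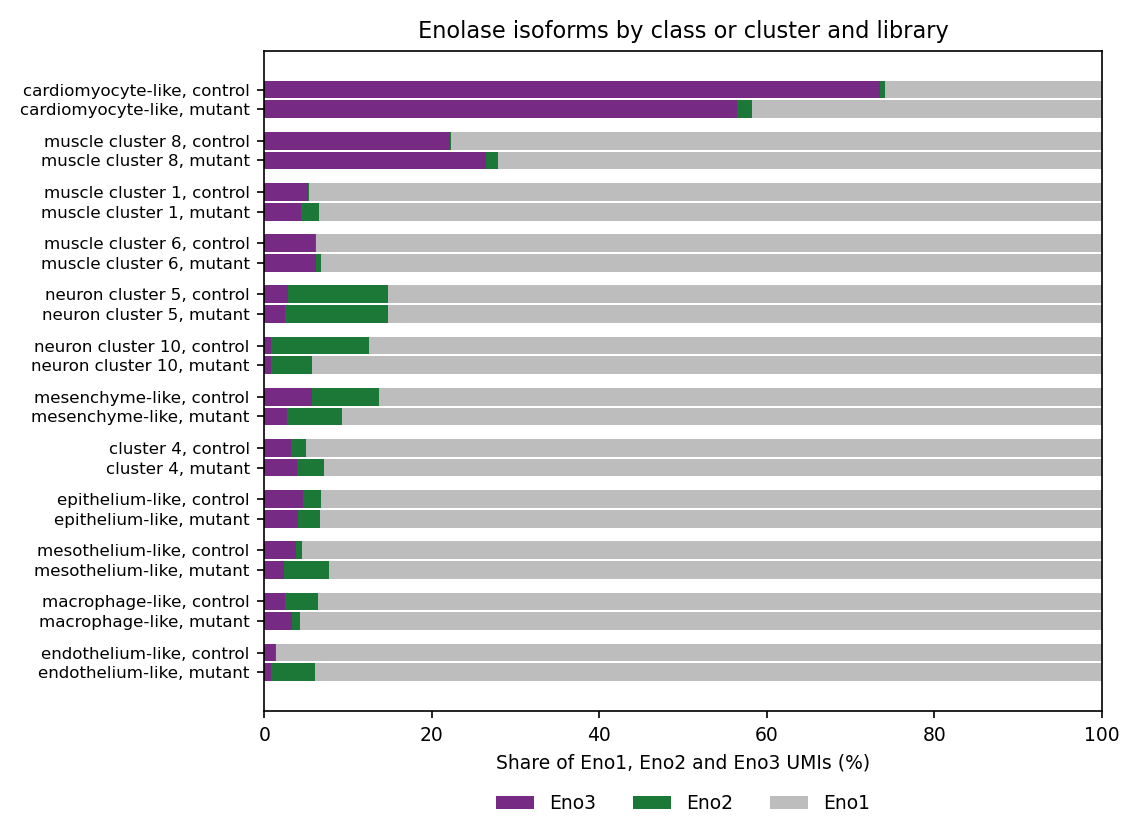
Share of enolase UMIs taken by Eno3 (purple), Eno2 (green) and Eno1 (grey), in %, for classes and for the single clusters of branchial muscle-like and neuron-like cells, in the control and mutant library. Eno3 takes 73.5 and 56.4% in cardiomyocyte-like cells and 22.2 and 26.5% in muscle cluster 8, and Eno2 takes 11.9 and 12.4% in neuron cluster 5.

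In cardiomyocyte-like cells, the muscle enolase Eno3 (chr11:70657202-70662513, plus strand) took 73.5% of enolase UMIs in control (interval 70.3 to 76.6%) and 56.4% in mutant (54.8 to 58%). The level of Eno3 was nearly the same, 680.1 and 689 CPM with a log2 ratio of 0.02 (interval -0.11 to 0.15), while Eno1 was at 239 and 509.6. The Eno3 shares of the 2 libraries did not overlap in their intervals, and the levels of Eno3 did. Eno3 was detected in 98.1% of control and 92.1% of mutant cardiomyocyte-like cells thinned to 5000 UMIs, and in 100 and 98.9% at full depth. In endothelium-like cells, which should lack it, the thinned shares were 0 and 1.2%, with median depths of 20162 and 17004 UMIs against 14424 and 15882 in cardiomyocyte-like cells.

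The cardiomyocyte-like cells of the 2 libraries also differed in chamber genes. Nppa, a natriuretic peptide of the embryonic atria and trabeculae, was at 4513 CPM in control and 668 in mutant cells, and the atrial light chain Myl7 at 20300.3 and 9939. The ventricular light chain Myl2 was at 1562 and 5895, and Myh7 at 1238 and 3006. Cells with more Nppa than Myl2 UMIs numbered 39 in control and 27 in mutant, and cells with more Myl2 than Nppa 11 and 150. This split was chosen after the values had been seen. Among the cells with more Nppa, Eno3 took 79.2% of control (75.7 to 82.5%) and 66% of mutant enolase UMIs (62.2 to 69.7%). Among the cells with more Myl2, it was 56.8% (48.6 to 64.7%) and 54.3% (52.5 to 56%), which overlapped. The summed core steps had a log2 ratio of 0.37 in the former and 0.40 in the latter cells, against 0.62 in all. Of the members with at least 50 UMIs, 3 of 8 were at least 1.5-fold higher in the former, where 10.8% of all genes were so, and 4 of 10 in the latter, where 22.1% were, against 8 of 10 in all. Pgam1 was at 675 CPM in control and 1127 in mutant in the former, 932 and 1868 in the latter and 729 and 1700 in all. Eno1 was at 196 and 333 in the former, 342 and 556 in the latter and 239 and 510 in all.

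**Figure D5:**
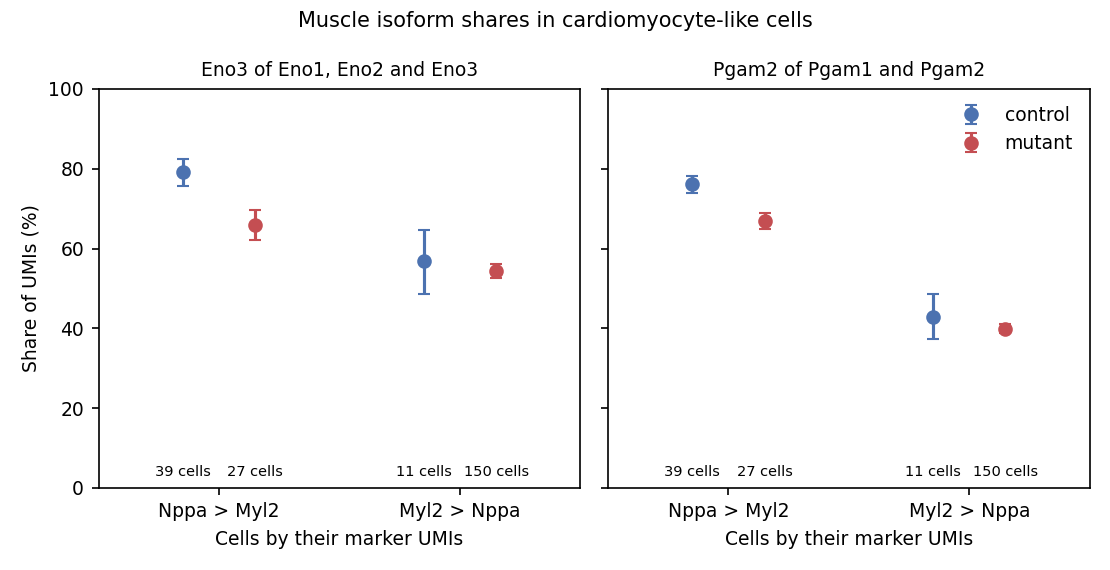
Share of the muscle isoform Eno3 among enolase UMIs (left) and Pgam2 among phosphoglycerate mutase UMIs (right), in %, for cardiomyocyte-like cells with more Nppa or with more Myl2 UMIs, in control (blue) and mutant (red), with 95% Clopper-Pearson intervals and cell numbers. Both shares are higher in cells with more Nppa in both libraries, and the intervals of the libraries overlap in the cells with more Myl2, at 56.8 and 54.3% for Eno3.

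In branchial muscle-like cells, Eno3 took 8.9% of enolase UMIs in control (interval 8.32 to 9.51%) and 10.1% in mutant (9.56 to 10.6%). This order did not hold under 2 other settings: without cluster 8 the share was 5.54% in control and 4.96% in mutant, and as a mean over cells 9.04 and 8.58%, so it turned in both. The clusters of this class were not alike. In clusters 1 and 6, with Pax7, Myf5 or histone genes at the top, it was 5.21 and 6.05% in control and 4.38 and 6.11% in mutant, against at most 5.72% in control classes outside muscle and heart. In cluster 8 control cells stood at 22.2% (20.3 to 24.2%) and mutant cells at 26.5% (24.9 to 28.2%). Of the Eno3 UMIs there, 2 cells held 65 of 399 in control and 97 of 763 in mutant. The counting intervals do not cover such differences between cells. The level of Eno3 in cluster 8 was 96.7 and 228 CPM, a log2 ratio of 1.23 (interval 1.06 to 1.41), which was larger than that of Eno1 at 0.87 (interval 0.77 to 0.97). Eno3 UMIs were found in 18.9% of control (13.7 to 25.1%) and 44% of mutant cells of cluster 8 (35.6 to 52.6%) thinned to 5000 UMIs. The Eno3 share was therefore lower in mutant cardiomyocyte-like cells and higher in mutant cells of cluster 8, and the difference between the classes was not tested.

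Elsewhere Eno3 was low. It was at 12.7 and 23.2 CPM in epithelium-like cells, where 2 mutant cells held 43 of the 128 mutant UMIs. Eno3 was at 7.37 and 13 in mesenchyme-like cells and 3.29 and 4.27 in neuron-like cells. In the Adh1, Wnt2 and Tbx4 cluster its log2 ratio was 0.86, and -0.16 in thinned cells, where only 16 control and 4 mutant cells held an Eno3 UMI. At full depth 14.4% of control and 23.5% of mutant cells of this cluster held one. In macrophage-like cells it was 0.97, and -0.18 without the cells that a finer clustering set apart by erythroid markers. The 12 cardiomyocyte markers, 10 to 12 of them detected, were higher in sum in the mutant library in each of these classes. They summed to 33.1 CPM in control and 152 in mutant epithelium-like cells, and to 26.03 and 77.6 in mesenchyme-like cells. Neuron-like cells had 83.5 and 153, the Adh1, Wnt2 and Tbx4 cluster 11.8 and 91.1 and macrophage-like cells 15.3 and 229. The part of heart transcripts in these Eno3 counts was not tested.

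Eno2 (chr6:124760053-124769673, minus strand), the enolase of neurons, took 11.8% of enolase UMIs in control neuron-like cells (interval 9.51 to 14.4%) and 8.64% in mutant ones (7.46 to 9.94%). Its level was 21.3 and 23 CPM, a log2 ratio of 0.12 (interval -0.27 to 0.51), while all 7 core steps were at least 1.5-fold higher in the mutant neuron-like cells. The 2 neuron clusters were not alike. In cluster 5 the share was 11.9% in control and 12.4% in mutant, and in cluster 10 it was 11.7% (8.54 to 15.4%) and 4.87% (3.64 to 6.37%), with Eno1 at 174 and 328 CPM in cluster 10. Over all neuron-like cells thinned to 5000 UMIs, the share was 9.15% in control and 10.4% in mutant. Only 14 control and 51 mutant thinned cells held an Eno2 UMI. No order of the libraries is therefore read for the whole class at equal depth. Thinned cells with an Eno2 UMI were 7.57% of control (4.2 to 12.4%) and 11.4% of mutant neuron-like cells (8.58 to 14.7%), or 29.2 and 24.2% at full depth.

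Eno2 was not confined to neurons. Mesenchyme-like cells held 10.2 CPM in control and 31.5 in mutant, shares of 7.93 and 6.53% of enolase UMIs. At a finer clustering, which counted the Adh1 cells as mesenchyme-like, the shares were 3.93 and 5.9%, a turn of the order. The log2 ratio there was 1.62 (interval 1.29 to 1.97) over all cells and 0.59 (interval 0.01 to 1.15) in female-like cells. Summed neuron markers were at 307 in control and 258 in mutant mesenchyme-like cells, with 13 of 13 markers holding UMIs in both. In branchial muscle-like cells Eno2 went from 0.514 to 9.89 CPM (12 and 191 UMIs), a log2 ratio of 4.27 (interval 3.43 to 5.24), and 2.09 (0.92 to 3.30) in female-like cells. These were found in 0.343% of control and 5.8% of mutant cells thinned to 5000 UMIs, and the 2 mutant cells with the most held 10 of the 191 UMIs. Cardiomyocyte-like cells had 5.77 and 23.1, mesothelium-like cells 2.76 and 37.7 and endothelium-like cells 0.307 and 24.6, from 5, 6 and 1 UMIs in control. These control counts are too few to give the size of the difference. In epithelium-like cells the ratio was 1.36, and -0.47 in female-like cells, a turn of direction. In macrophage-like cells Eno2 was lower in the mutant library, 8.62 against 3.2, a log2 ratio of -1.43 (interval -2.36 to -0.56). At full depth 13.9% of control and 6.25% of mutant macrophage-like cells had an Eno2 UMI, at median depths of 25602 and 27322 UMIs. Thinned to 5000 UMIs, 2.96 and 2.94% had one. These were only 5 control and 5 mutant cells, too few to show an order, so none is read there.

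Aldoc (chr11:78322968-78327781, plus strand), the aldolase of brain, was sparse, with 1094 UMIs in all kept cells. In the control library its largest shares of Aldoa and Aldoc UMIs were 7.72% in neuron-like, 6.37% in mesothelium-like and 5.26% in epithelium-like cells. All 3 were lower in the mutant library, at 0.338% (0.212 to 0.511%), 3.02% (2.3 to 3.9%) and 1.84% (1.58 to 2.13%). Of these 3 classes, the level of Aldoc itself was lower beyond counting error in neuron-like cells, 26.3 against 2.85 CPM and a log2 ratio of -3.21 (interval -3.94 to -2.53). Of the 104 control UMIs there, 53 came from 2 cells, and without these cells the control share was 3.98% and the log2 ratio -2.19. Neural crest markers, which include genes of glia, moved with it in the neuron-like class, at 491 summed CPM in control and 139 in mutant with 9 of 9 detected in both, and so did mesenchyme markers, at 563 and 59.9 with 12 of 12 detected. Their part in the result was not tested.

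In mesothelium-like cells the level of Aldoc was 62.1 in control and 50.01 in mutant CPM, a log2 ratio of -0.31 (interval -0.79 to 0.14), and -2.53 (-4.43 to -1.14) in female-like cells. In epithelium-like cells it was 27.5 and 31.9, a log2 ratio of 0.21 (interval -0.14 to 0.57), while Aldoa went from 496 to 1702. Aldoc was higher in mutant mesenchyme-like cells, 2.46 against 10.00 with a log2 ratio of 2.03 (interval 1.36 to 2.74), and in cardiomyocyte-like cells, 13.9 against 32.9 with 1.25 (interval 0.38 to 2.25). In female-like cardiomyocyte-like cells, 11 in control and 12 in mutant, the ratio was 0.19 (-1.61 to 2.04). It was lower in mutant branchial muscle-like cells, 2.74 against 1.45 from 64 and 28 UMIs, a log2 ratio of -0.92 (interval -1.61 to -0.26). In thinned muscle cells, however, the ratio was -0.40, and 1.49% of control (0.794 to 2.53%) and 1.26% of mutant cells (0.606 to 2.31%) had an Aldoc UMI. These were only 13 and 10 cells, too few to show an order, so none is read there. At full depth 5.07 and 2.98% of cells had one, at median depths of 26382.5 and 22177.5 UMIs. Thinned to 5000 UMIs, 21.4% of control and 13.8% of mutant mesothelium-like cells had an Aldoc UMI, against 1.38 and 2.25% of endothelium-like cells, which should lack it, at median depths of 28114 and 14430 against 20162 and 17004 UMIs.

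The second muscle gene of the pathway, Pgam2, is no member but serves the same step as Pgam1 and has no copy elsewhere. It took 70.5% of phosphoglycerate mutase UMIs in control and 46.2% in mutant cardiomyocyte-like cells, at 1742 and 1458 CPM with a log2 ratio of -0.26 (interval -0.34 to -0.17). In cells with more Nppa than Myl2 the shares were 76.1 and 66.9%, and in cells with more Myl2 42.9% (37.3 to 48.5%) and 39.9% (38.8 to 41%). In muscle cluster 8 its share was 40.6% in control and 23.8% in mutant, with the level at 200.3 and 228 against 293 and 732 for Pgam1. In cluster 8 the muscle share was therefore higher in mutant cells for enolase and lower for phosphoglycerate mutase. In macrophage-like cells, which should lack it, Pgam2 had 1 UMI in control and 46 in mutant, and 12 cardiomyocyte markers summed there to 15.3 and 229 CPM, with 10 and 12 of them detected. The part of heart transcripts in these Pgam2 counts was not tested.

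The rest of the pathway was followed with lists of 8 genes each. Of 8 genes of glucose uptake and upper glycolysis, 7 were at least 1.5-fold higher in mutant mesenchyme-like cells, where 9.08% of all genes were so. The count was also 7 in branchial muscle-like (background 13.2%), mesothelium-like (21.1%) and epithelium-like cells (8.34%). It was 6 in cardiomyocyte-like cells (11.8%) and in the Adh1, Wnt2 and Tbx4 cluster (10.7%). In neuron-like (5.62%) and macrophage-like cells (8.6%) it was 4. The glucose transporter Slc2a1 was at least 1.5-fold higher in 9 of 9 classes, from 0.92 to 2.66. Pfkm, the muscle form of phosphofructokinase, was so in 1 of 9, from -0.58 to 0.67, whereas the liver form Pfkl was so in 8 of 9. Among 8 genes of pyruvate and lactate, Ldha, which makes lactate, was at least 1.5-fold higher in 9 of 9 classes (0.71 to 1.75) and the lactate exporter Slc16a3 in 8 of 9. The genes that lead pyruvate into mitochondria, Mpc1 and Mpc2, and Pdha1 of pyruvate dehydrogenase were so in 0 of 9. Mpc1 was at least 1.5-fold lower in 2 of 9, with values from -1.26 to 0.25. The medians over the members were 1.61 in mesenchyme-like and 0.74 in macrophage-like cells, beside 0.00 and -0.03 over all genes with at least 50 UMIs.

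Cells of a class differed among themselves. Thinned to 5000 UMIs, control mesenchyme-like cells had a median of 11 core UMIs, with the 10th and 90th percentiles at 4 and 19, and mutant ones a median of 29, with 10 and 71. In mesothelium-like cells both medians were 25, while the 90th percentile was 38.3 in control and 89.6 in mutant, so the higher mutant sum of this class lay in its upper cells. In cardiomyocyte-like cells the medians were 66 and 104. Across single cells, the core UMIs went with those of 10 HIF targets outside glycolysis (Bnip3, Ddit4 and others) at Spearman's rho of 0.56 in 484 mutant and 0.01 in 569 control mesenchyme-like cells. In the Adh1, Wnt2 and Tbx4 cluster rho was 0.52 in mutant and -0.11 in control cells, in epithelium-like cells 0.41 and 0.10, and in macrophage-like cells 0.12 in mutant cells. Of these 10 targets, 10 were at least 1.5-fold higher in mutant mesenchyme-like cells, where 9.08% of all genes were so. The count was 10 in epithelium-like (background 8.34%), 6 in cardiomyocyte-like (11.8%) and 7 in neuron-like cells (5.62%). It was 5 of 8 in macrophage-like cells (8.6%). Bnip3 and Ddit4 passed 1.5-fold in 9 of 9 classes, whereas Vegfa did in 6 of 9 and was at least 1.5-fold lower in 1, at -1.23. That class was the macrophage-like cells, whose ratios compare unlike mixtures of cells. Cells of a library share its preparation, the HIF targets had a mean of only 2.18 UMIs in control mesenchyme-like cells against 10.7 in mutant ones, and no test was made.

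The genes whose levels were most like the members were found by Pearson's r of log2(CPM + 1) over the 18 sums of 9 classes in 2 libraries, among 7979 genes. The sum of the core steps was followed most closely by Cfap77 (r = 0.981) and Stpg2 (0.961), the genes that hold Gapdh copies, and then by Grhpr (0.906), Fam162a (0.890) and Mif (0.875). Eno3 was followed by Myoz2 (0.942), Hspb2, Mrps35, Uqcrh and Actn2 (0.931), of which Myoz2 and Actn2 encode Z-disc proteins of striated muscle. Aldoc was followed by Rgs6 (0.867), Krt19, Ezr, Krt8 and Krt18 (0.796), 3 of them keratins of simple epithelia. Eno2 had no close match: its first genes were Tmem60 (0.771), Rnf34, Ptp4a1 and Ddit3 (0.746).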

How the data were processed

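The authors sorted eYFP+ cells, made 5′ v2 libraries, aligned reads to mm10 with Cell Ranger 7.1.0 (submitters' processing notes) and deposited unnormalized UMI counts per gene and called cell. Annotation release and intron counting are not given in the sources used here. Cells were filtered by the limits in the report, integrated and clustered with Seurat 5.3.0 (R 4.3.3; canonical correlation anchors, 30 components, 20 neighbours, 2000 variable genes without the reported lists, cell cycle regressed, resolution 0.3), and named where at least 3 markers were raised. A cluster stayed unnamed if its top genes by fold held more markers of another list than of its own, as in cluster 4. Scrublet (scanpy 1.11.5) marked 0 control and 1 mutant cell as doublets and its threshold was not used, while removal of 73 and 123 high-scoring kept cells was an alternative. Thinning to 5000 UMIs left out 61 control and 173 mutant cells. Summed UMI counts per class were compared as ratios with conditional exact binomial intervals, levels with Poisson and shares with Clopper-Pearson intervals. A count of 0 allows up to 3 counts. Scripts were tested on simulated data (scipy 1.17.1, numpy 2.4.6, pandas 2.3.3, Python 3.11.15; figures with matplotlib 3.10.9). Named genes are all members, list genes at the ends of their range and the 5 genes most like each pattern (mean of at least 20 CPM), of which 1 is not reported here. Members, lists and alternatives were chosen with earlier results of these data known. Of the alternatives, 12 were planned and 6 added after seeing the data.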

Additional observations from a re-analysis of the deposited data

Results flagged for a closer look

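In 3 cases the ratio of a gene lay below 0 with its whole counting interval in 1 class and above 0 in another, and in each of them the difference between the classes was not tested. Aldoc had a log2 ratio of mutant over control of -0.92 in branchial muscle-like cells, from 64 and 28 UMIs, and -3.21 in neuron-like cells, against 2.03 in mesenchyme-like and 1.25 in cardiomyocyte-like cells. Eno2 had -1.43 in macrophage-like cells, from 40 and 16 UMIs, against 1.62 in mesenchyme-like cells. In female-like cells the lower values were -0.74, -3.31 and -2.02, in the order muscle, neuron and macrophage. In cells thinned to 5000 UMIs, Aldoc was at -0.40 in branchial muscle-like cells, with an Aldoc UMI in 1.49% of control and 1.26% of mutant cells, and Eno2 was at -0.01 in macrophage-like cells, with an Eno2 UMI in 5 of 169 control and 5 of 170 mutant cells. These thinned counts are too few to show an order, and none is read from them for either. At full depth, 5.07% of control and 2.98% of mutant branchial muscle-like cells had an Aldoc UMI. For Eno2 in macrophage-like cells it was 13.9 and 6.25%.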

How the results depend on the processing

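The main limit is 1 library of 3 pooled embryos for each genotype, so genotype, pool, sex and preparation cannot be told apart. The summed core steps were higher in mutant cells in every class under each of 10 alternative settings that gave them a value (cluster 4 had none without integration, at resolution 0.8 or with classes from marker counts, where it was not kept as a class), over 0.34 to 1.66. Cluster 4 held 369 control and 132 mutant cells. At resolution 0.8 an Adh1, Wnt2 and Tbx4 cluster of 357 and 86 cells was named mesenchyme-like. Without integration one of 448 and 84 cells was named mural-like. Neither was compared on its own. TMM moved all genes by 0.15 in heart, 0.12 in neuron, 0.12 in endothelium and -0.12 in mesothelium cells, and reversed no core step. Depth limits Aldoc, Eno2 and Eno3 outside their own tissues, where many values rest on under 50 UMIs. No paired analysis was possible because each genotype had 1 library. Below, classes are named without -like, and values that moved beyond their counting interval are listed. The cause was not tested. Without high-scoring doublets, the core log2 ratio was muscle 0.79, heart 0.58, neuron 0.93 and endothelium 1.47. With classes from marker counts, the core log2 ratio was muscle 0.88, heart 0.57, neuron 0.91, mesenchyme 1.33 and macrophage 0.73 and the share was Eno3 control muscle 11.4%, Eno3 mutant muscle 17%, Eno3 mutant heart 54.6%, Aldoc control neuron 2.82% and Eno2 control mesenchyme 5.98%. With a mitochondrial limit of 5%, the core log2 ratio was muscle 0.78, heart 0.58, epithelium 0.97 and mesothelium 0.70. In female-like cells, the core log2 ratio was muscle 0.75, heart 0.69, neuron 0.90, mesenchyme 1.33, cluster 4 0.65, epithelium 0.85, mesothelium 0.34, macrophage 0.55 and endothelium 1.24, the members at least 1.5-fold higher were 3 in cluster 4 and 1 in mesothelium, the share was Eno3 mutant muscle 10.8%, Eno3 control heart 68.6%, Eno3 mutant heart 49.4%, Eno2 mutant mesenchyme 4.07%, Aldoc mutant epithelium 1.34% and Aldoc mutant mesothelium 0.959% and the log2 ratio of Eno2 in epithelium cells reversed to -0.47. As a mean over cells, the core log2 ratio was muscle 0.88, neuron 1.07, mesenchyme 1.64, epithelium 1.10, mesothelium 0.53, macrophage 0.67 and endothelium 1.39 and the share was Eno3 mutant muscle 8.58%, Eno2 mutant neuron 10.8%, Aldoc control neuron 10.2% and Eno2 mutant mesenchyme 8.24%. In cells thinned to 5000 UMIs, the core log2 ratio was muscle 0.90, neuron 1.07, mesenchyme 1.66, cluster 4 0.87, epithelium 1.08, mesothelium 0.53 and macrophage 0.64, the share was Eno3 mutant muscle 9.33%, Eno2 control neuron 9.15%, Eno2 mutant neuron 10.4%, Aldoc mutant neuron 0.189%, Aldoc mutant epithelium 2.34% and Aldoc mutant mesothelium 2.01% and the log2 ratio of Eno3 in cluster 4 cells reversed to -0.16. With the TMM factor of edgeR 4.0.16, the core log2 ratio was muscle 0.79, heart 0.77, neuron 1.09, cluster 4 0.79, epithelium 1.07, mesothelium 0.53, macrophage 0.64 and endothelium 1.56. Without cluster 8, the core log2 ratio was muscle 0.75 and the share was Eno3 control muscle 5.54% and Eno3 mutant muscle 4.96%. With Eno1b in the enolase total, the share was Eno3 control muscle 8.05%, Eno3 mutant muscle 9.15% and Eno3 mutant heart 53.7%. In heart cells with more Nppa than Myl2, the core log2 ratio was heart 0.37, the members at least 1.5-fold higher were 3 in heart and the share was Eno3 control heart 79.2% and Eno3 mutant heart 66%. In heart cells with more Myl2 than Nppa, the core log2 ratio was heart 0.40, the members at least 1.5-fold higher were 4 in heart and the share was Eno3 control heart 56.8% and Eno3 mutant heart 54.3%. Without integration, the core log2 ratio was neuron 1.03 and mesenchyme 1.5 and the share was Aldoc control neuron 4.14%. With the median ratio, the core log2 ratio was neuron 1.04, epithelium 1.05, mesothelium 0.55 and endothelium 1.54. Without the 2 control neuron-like cells with most Aldoc, the share was Aldoc control neuron 3.98%. At resolution 0.8, the core log2 ratio was mesenchyme 1.28 and macrophage 0.90, the share was Eno2 control mesenchyme 3.93% and the log2 ratio of Eno3 in macrophage cells reversed to -0.18. Without the macrophage-like cells of the erythroid-like cluster, the core log2 ratio was macrophage 0.90 and the log2 ratio of Eno3 in macrophage cells reversed to -0.18. Of the other values, 239 stayed within the counting interval or 1.5 times the count, and among ratios of single members and background shares 271 moved, 753 did not and 4 reversed.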

Other observations

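The cluster with liver genes held 47 mutant and 0 control cells, so it allows no comparison. Pklr, the pyruvate kinase of liver and red cells, took there 7.03% of pyruvate kinase UMIs, with Pkm at 365 CPM. Pklr was also found in macrophage-like cells, at 11.4 in control and 38.6 in mutant, where summed erythroid markers were 3632 and 14048, and their part in it was not tested. Classes too small to compare gave the summed core steps at 3390.5 in 39 control and 6989 in 27 mutant mural-like cells, and at 2453 in 54 control and 6017 in 25 mutant neural crest-like cells. Pgk2, the phosphoglycerate kinase of sperm, had 0 UMIs in all classes.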
